A study of Mus musculus with 33 samples.

Results

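The genes described here are 9 complement genes and complement receptors that microglia, the resident macrophages of the brain, make or can make: C1qa, C1qb, C1qc, C3, C3ar1, C5ar1, Itgam, Itgb2 and Cfp. The rule lists them by function and uses no measured value, and they are 9 of the 54146 genes counted. All 9 were found in the count files of 33 libraries, each from FACS-sorted microglia of C57BL/6 mice, in 10 groups. The study compared microglia that lack the transcription factors IRF8 or Batf3, and microglia of 5xFAD mice, a transgenic model of amyloid deposition.

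The germline experiment at 3 months of age held 4 WT libraries and 4 IRF8KO libraries. At 9 months there were 3 libraries each of WT, IRF8KO, 5xFAD (genotype given as 5xFAD/WT) and 5xFAD/IRF8KO. A separate experiment at 3 months held 3 WT and 3 Batf3-/- libraries, called Batf3KO in the titles. In the conditional experiment at 3 months all mice received tamoxifen on 5 days in a row from postnatal day 12, and the libraries were 3 with the genotype IRF8flox, called flox here, and 4 with the genotype IRF8floxCx3cr1CreERT2, called Cre. Cre recombinase is driven by Cx3cr1 in these mice, a gene that other macrophages of the brain's borders and blood monocytes also use, and the design text states that YFP-positive microglia from a Rosa26LSL-EYFP reporter were sorted. Germline IRF8KO mice lack IRF8 in every cell, blood cells included. The labels do not say whether libraries of 1 group came from separate mice, so p-values measure the spread between these libraries, which may be technical.

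The complement system tags particles, dying cells and synapses for removal. C1q, assembled from equal numbers of the A, B and C chains encoded by C1qa, C1qb and C1qc, starts the classical pathway by binding to its targets, and in the brain microglia are its main source. All pathways meet at C3, whose cleavage leaves fragments on the target and releases the peptide C3a. Properdin, encoded by Cfp, stabilises the alternative pathway's C3 convertase and so amplifies that step. C3ar1 and C5ar1 encode the receptors for the peptides C3a and C5a. Itgam and Itgb2 encode CD11b and CD18, which pair as complement receptor 3 and bind C3 fragments on tagged material. In the developing visual system, C1q, C3 and complement receptor 3 are known for their part in the removal of synapses by microglia.

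Depth and the labels were checked first. Counts in genes ranged from 605376 to 18357762 per library, so the precision differed widely, and the lowest depth was that of WT replicate 3 at 9 months. Irf8 was lower in IRF8KO than in WT at both ages, with 104 to 185 counts per 1000000 gene counts (CPM) against 253 to 333 at 3 months and 15.9 to 138 against 500 to 583 at 9 months. Batf3 was at 0.429 to 0.508 CPM in Batf3KO and at 23.1 to 27.7 CPM in its WT. The first Cre library went against its label, since its Irf8 was at 1126 CPM, within the 953 to 1186 CPM of the flox libraries, while the other 3 Cre libraries were at 346 to 481 CPM. Results on the conditional knockout are therefore given with and without the library labelled Cre replicate 1. All samples are labelled female, yet 13 libraries held Y-linked transcripts and no Xist, 3 held both and 1 held neither. No pair of libraries within a group held identical values.

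Markers of other cells also differed between groups. The 14 neutrophil markers, all detected in the 3 germline IRF8KO groups, summed to 7.75% to 16.6% of gene counts in IRF8KO at 3 months, 6.53% to 9.12% in IRF8KO at 9 months and 8.26% to 14.9% in 5xFAD/IRF8KO. The same sum was 0.867% to 5.40% in the matched 3-month WT libraries and at most 0.0112% in the other 6 groups. In WT at 9 months 8 of the 14 were at 0, Ly6g, Ngp, Camp, Ltf, Lcn2, Mmp8, Elane and Mpo. The 8 monocyte markers summed to 0.554% to 1.60% in the germline IRF8KO libraries. Their sum was 0.0478% to 0.252% in the matched 3-month WT libraries and at most 0.00171% in the other 6 groups. The 10 microglial markers, P2ry12 and Tmem119 among them, were all detected in every group except for Sall1 in 5xFAD/IRF8KO. Their sum was 0.619% to 1.13% of counts in IRF8KO at 3 months against 1.19% to 2.20% in WT. At 9 months the WT libraries reached 6.37% to 6.53% and the IRF8KO libraries 0.367% to 0.904%. These sums move with the IRF8KO results given next, and their part in those results was not tested.

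The genomic positions and upstream sequences of the genes that moved most are given first, because the C1q genes lie side by side and changed together. On GRCm38 the C1q genes occupied neighbouring stretches of the minus strand of chromosome 4, C1qb at chr4:136880129-136886187, C1qc at chr4:136889804-136893065 and C1qa at chr4:136895917-136898803. C3 lies at chr17:57203970-57228136, Cfp at chrX:20925454-20931555, C3ar1 at chr6:122847138-122856161 and C5ar1 at chr7:16246743-16259540, all on the minus strand. Itgam at chr7:128062640-128118491 and Itgb2 at chr10:77530252-77565708 are on the plus strand. RefSeq promoter windows on GRCm38.p6, from 250 bases before to 50 bases after a gene's start, were matched for 7 of the 9 genes, all but C1qa and Itgb2. The bases of these windows that lie outside annotated exons are printed 5′ to 3′ on the gene's strand for both matched C1q chains, for C3 and Cfp, the genes with the largest rises, and for C3ar1, the gene with an AP-1/BATF match. Capitals mark GAGGAA or its reverse complement, a core that the macrophage factor PU.1 can bind, and TGANTCA, a core that AP-1 and BATF factors can bind.
C1qb (chr4:136886201-136886450, minus): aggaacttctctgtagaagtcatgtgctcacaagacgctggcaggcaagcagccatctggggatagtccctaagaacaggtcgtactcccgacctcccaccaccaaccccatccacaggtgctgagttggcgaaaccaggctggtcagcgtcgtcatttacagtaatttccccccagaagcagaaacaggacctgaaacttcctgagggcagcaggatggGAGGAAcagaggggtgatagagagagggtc
C1qc (chr4:136893066-136893164, minus): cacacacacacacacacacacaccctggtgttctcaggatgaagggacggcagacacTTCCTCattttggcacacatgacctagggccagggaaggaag
C3 (chr17:57228137-57228386, minus): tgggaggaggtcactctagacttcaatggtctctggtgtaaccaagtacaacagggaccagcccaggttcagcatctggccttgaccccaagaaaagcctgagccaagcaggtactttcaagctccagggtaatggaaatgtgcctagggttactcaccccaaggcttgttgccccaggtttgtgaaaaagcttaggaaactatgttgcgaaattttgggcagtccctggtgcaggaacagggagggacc
Cfp (chrX:20931556-20931805, minus): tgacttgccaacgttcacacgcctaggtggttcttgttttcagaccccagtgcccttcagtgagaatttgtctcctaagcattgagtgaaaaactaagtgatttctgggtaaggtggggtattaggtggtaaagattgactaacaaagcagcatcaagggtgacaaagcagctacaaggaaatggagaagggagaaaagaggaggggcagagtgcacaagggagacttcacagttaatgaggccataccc
C3ar1 (chr6:122856162-122856407, minus): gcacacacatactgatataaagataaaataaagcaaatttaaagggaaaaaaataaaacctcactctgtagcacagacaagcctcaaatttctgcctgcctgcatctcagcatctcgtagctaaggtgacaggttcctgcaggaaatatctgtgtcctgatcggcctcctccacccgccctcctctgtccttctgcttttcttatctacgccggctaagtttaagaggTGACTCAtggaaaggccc

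The search covered both strands of the whole windows. Distances are counted from the RefSeq start of each window. For C1qc and C3ar1 that start lies inside the gene span given above, so their printed stretches end before it. GAGGAA was present in 3 of the 7 windows, 25 to 30 bases before the start of C1qb, 188 to 193 bases before the start of C1qc, and at 2 places in Itgam, and 23.3% of all 32851 mouse windows held it. TGANTCA was present in C3ar1 alone among the 7, as TGACTCA from 22 to 16 bases before its start, and in 6.75% of all windows. The IRF repeat, GAAA and again GAAA after any 2 bases, was held by 2.98% of windows, and the ETS and IRF composite, GGAA and then GAAA after any 2 bases, by 2.30%. Both were in none of the 7, which says only that these letters are not in these windows. The composite can share bases with GAGGAA, so the counts of these motifs are not independent. The printed stretches of C3 and Cfp hold none of the motifs.

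C1q was among the most abundant messages of these cells. Per kilobase of exon and among 21557 protein-coding genes, C1qb held rank 3 in WT at 9 months with 4662 ± 1134 CPM per kilobase (SD, n = 3), C1qc rank 7 and C1qa rank 8. In IRF8KO at 9 months the same genes held ranks 46, 64 and 55. Counted together, the 3 chains took 1.43% to 2.07% of gene counts in WT at 9 months, 2.25% to 2.74% in the 6 libraries of the Batf3KO experiment and 2.44% to 2.72% in flox. No germline IRF8KO library exceeded 0.592%.

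Loss of IRF8 at 3 months went with lower C1q. C1qa was at 4789, 3147, 2096 and 1803 CPM in the 4 WT libraries and at 761, 867, 1240 and 1270 CPM in the 4 IRF8KO libraries. C1qb was at 19119, 10988, 7277 and 5894 CPM in WT and at 1338, 1490, 1962 and 2325 CPM in IRF8KO. C1qc ran from 4822 to 17990 CPM in WT and from 1777 to 2829 CPM in IRF8KO. For each chain the groups did not overlap, and WT replicate 1 was the highest library. The log2 change was -1.60 for C1qa (SE 0.42, edgeR adjusted p = 0.0388), -2.69 for C1qb (SE 0.51, adjusted p = 0.0103) and -2.25 for C1qc (SE 0.52, adjusted p = 0.0231). Of all 9 genes 6 changed here, where 7.39% of the 13121 genes tested did. The 3 C1q genes fell, against 3.24% of all genes, and C3, Itgb2 and Cfp rose, against 4.15%. The C1qa call was lost without any 1 of the IRF8KO libraries or without WT replicate 1 or 2, the C1qc call without any 1 of the IRF8KO libraries, and the C1qb call without IRF8KO replicate 1, with changes that stayed negative throughout. With a score of sex-linked genes as covariate none of the 6 calls stayed at 3 months, where 43 of 13121 genes passed. WT replicate 1 held neither Xist nor Y-linked transcripts. The score separated the groups, with -5.38 to -1.94 in WT and -7.34 to -6.89 in IRF8KO. Score and genotype therefore cannot be told apart here, and this fit cannot decide between them.

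The fall was present at 9 months as well, in mice with and without the 5xFAD transgenes. C1qb was at 5331, 6155 and 3729 CPM in WT, at 1269, 580 and 520 CPM in IRF8KO, at 11233, 10148 and 11892 CPM in 5xFAD and at 590, 605 and 360 CPM in 5xFAD/IRF8KO. C1qa was at 2129, 2527 and 1853 CPM in WT, at 811, 460 and 510 CPM in IRF8KO, at 5064, 6003 and 6246 CPM in 5xFAD and at 596, 496 and 704 CPM in 5xFAD/IRF8KO. The IRF8KO libraries with and without 5xFAD overlapped, while the 5xFAD libraries stood above all WT libraries of that age. Against WT, IRF8KO lowered C1qa by a log2 change of -2.03 (SE 0.26, adjusted p = 0.000149), C1qb by -2.85 (SE 0.37, adjusted p = 0.000151) and C1qc by -2.46 (SE 0.29, adjusted p = 6.85e-05). Within 5xFAD mice the changes were -3.37 (SE 0.28), -4.53 (SE 0.40) and -3.56 (SE 0.30), each with an adjusted p of 1.01e-05 or less. Every one of these 6 calls stayed when any 1 of the libraries compared was left out. The WT libraries at 9 months held Y-linked transcripts and no Xist. IRF8KO replicate 1 held Xist only, replicate 2 Y-linked transcripts only and replicate 3 both. The score of sex-linked genes was -8.11 to -6.71 in WT and -4.58 to 3.14 in IRF8KO. Score and genotype therefore cannot be told apart in IRF8KO against WT at 9 months. With the score as covariate 2201 of 14604 genes passed there. At 9 months 6 of the 9 genes changed with IRF8KO, where 28.3% of 14604 genes did. The 3 C1q genes fell, against 8.68% of all genes, and C3, C5ar1 and Cfp rose, against 19.6%. In 5xFAD/IRF8KO against 5xFAD 8 of the 9 changed, where 27.8% of genes did. There 4 fell, against 9.72% of all genes, and 4 rose, against 18%.

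In bulk RNA of sorted cells, fewer cells of a type and less RNA per cell cannot be told apart. As a description, the summed C1q counts were set against the summed counts of the 10 microglial markers in the same library. At 3 months this ratio lay between 0.787 and 1.49 for WT libraries and between 0.449 and 0.571 for IRF8KO libraries, without overlap. At 9 months the WT range, 0.225 to 0.322, overlapped the IRF8KO range, 0.270 to 0.428, and the IRF8KO mean was the higher of the pair, 0.352 against 0.268. The 5xFAD libraries ranged from 0.439 to 0.605 and the 5xFAD/IRF8KO libraries from 0.207 to 0.286. The markers themselves differed between groups, and this ratio therefore does not give C1q per cell.

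The 5xFAD transgenes alone raised C1qa, and the other chains were higher without passing the test. C1qa was 1.34 higher on the log2 scale (SE 0.26, edgeR adjusted p = 0.0252), the only 1 of the 9 genes that passed in a comparison where 1.99% of genes did. C1qb was higher by 1.06 (SE 0.35, adjusted p = 0.189) and C1qc by 1.01 (SE 0.27, adjusted p = 0.0916). For all 3 chains every 5xFAD library exceeded every WT library. This is a description only, since the share of all genes separated in this way is not given. The C1qa call was lost when any 1 of the 6 libraries was left out. When the 6 libraries were fitted alone, 7 of 7 genes tested passed, where 43.5% of 10452 genes did. The limma voom fit with quality weights also called 7, where it called 26.2% of genes. All 3 WT libraries at 9 months held Y-linked transcripts and no Xist, whereas 5xFAD replicates 1 and 2 held Xist only and replicate 3 Y-linked transcripts only. With the sex score as covariate the C1qa change was 1.19 (edgeR adjusted p = 0.402) and 2 of 14604 genes passed. The score was -8.11 to -6.71 in WT and -4.34 to 6.72 in 5xFAD, without overlap, which limits what this fit can decide.

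**Figure D1:**
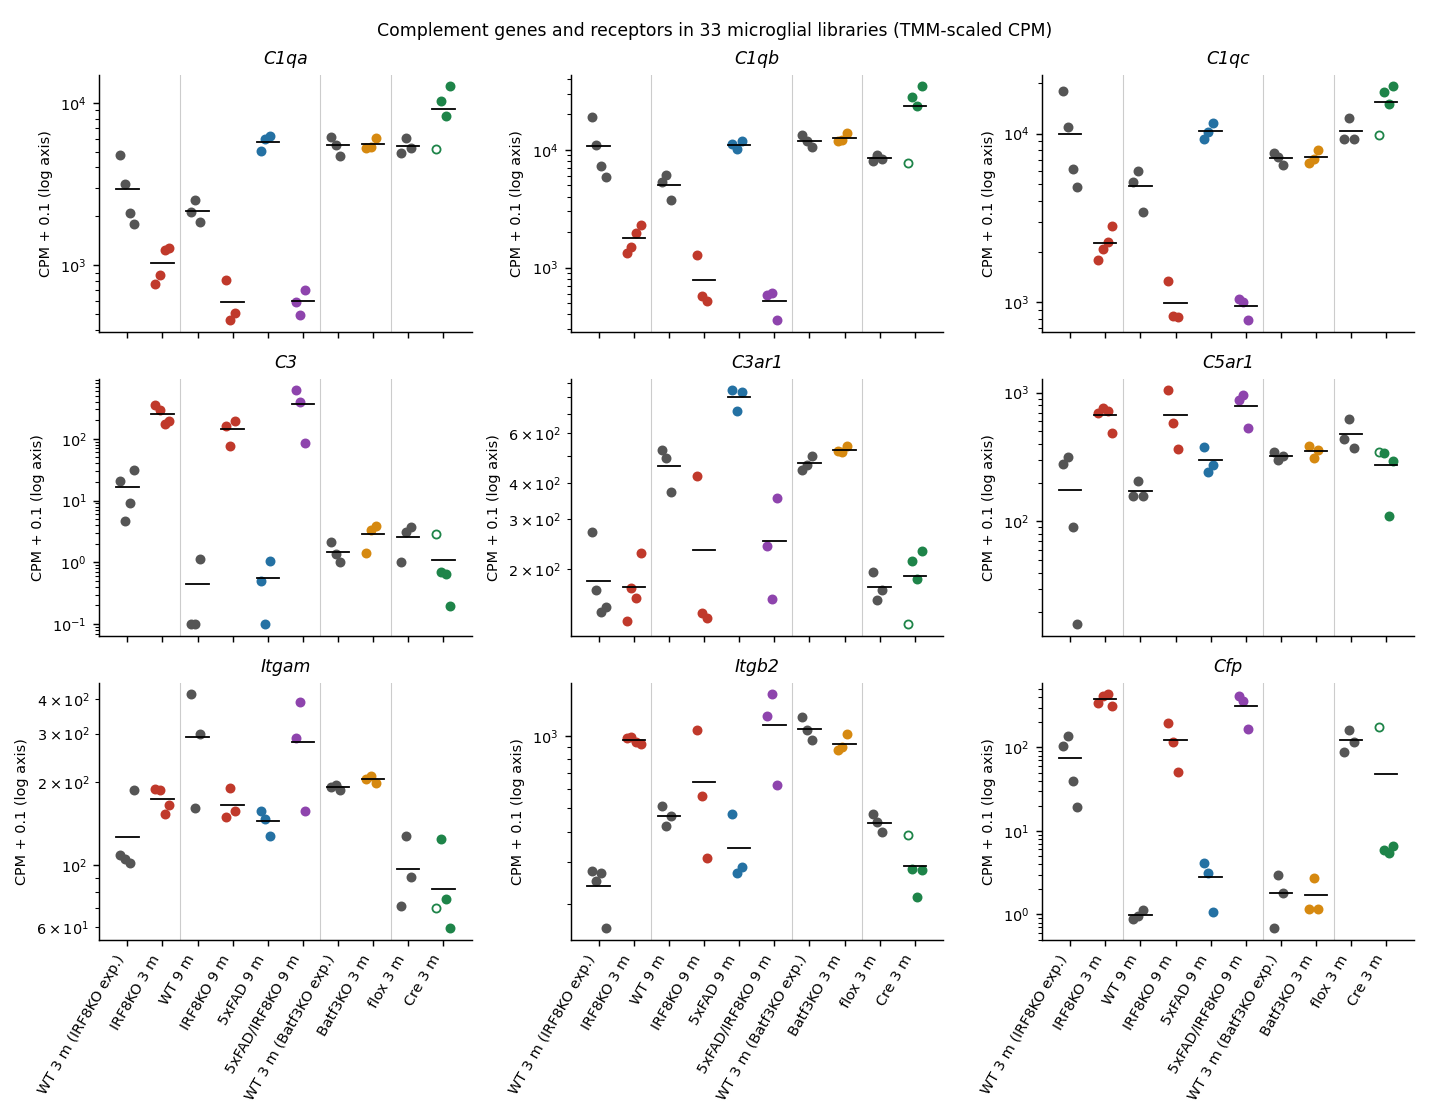
Each panel plots 1 gene, with the 10 groups on the x axis and CPM plus 0.1 on a log y axis. Each point is 1 of the 33 libraries, the bar is the group mean, and the open circle is the library labelled Cre replicate 1. The 3 C1q panels share 1 shape, lowest in the 3 germline IRF8KO groups, while C3 and Cfp are high in those groups.

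Within 5xFAD and WT mice the size of the IRF8KO change in C1q was compared directly by the interaction term. It was -1.34 for C1qa (SE 0.36, adjusted p = 0.113), -1.68 for C1qb (SE 0.49, adjusted p = 0.140) and -1.10 for C1qc (SE 0.38, adjusted p = 0.200). None of the 9 genes passed with edgeR, where 0.438% of genes did. At an unadjusted p under 0.05 there were 4 of the 9 and 2146 of all 14604 genes. DESeq2 called 4, the C1q chains and Itgam, where it called 6.05% of genes, and limma voom called 0, where it called 0.0753%. A negative value stands for a larger fall in 5xFAD mice, and a difference was not shown.

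In the conditional knockout C1q was higher, the opposite direction to the germline knockout. C1qb was at 8115, 9033 and 8369 CPM in flox and at 28192, 23641 and 34767 CPM in Cre replicates 2 to 4. Cre replicate 1, whose Irf8 was at the flox level, was at 7809 CPM. C1qa followed the same order, with 4925 to 6067 CPM in flox, 8339 to 12670 CPM in Cre replicates 2 to 4 and 5202 CPM in replicate 1. Together the C1q chains took 5.19% to 6.33% of all gene counts in Cre replicates 2 to 4, the highest shares among the 33 libraries. With all 4 Cre libraries none of the 9 genes passed and no gene of the 15512 tested did (0% called). At an unadjusted p under 0.05 edgeR gave 5 of the 9 and 1407 of all genes, DESeq2 called 1 of the 9 and 164 genes, and limma voom called 2 of the 9 and 257 genes. Without Cre replicate 1, C1qa was 1.00 higher on the log2 scale (SE 0.21, adjusted p = 0.00450), C1qb 1.81 (SE 0.22, adjusted p = 1.05e-05) and C1qc 0.79 (SE 0.21, adjusted p = 0.0290), and 5 of the 8 genes tested passed, against 6.24% of 15264 genes.

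The difference between the conditional and the germline change at 3 months passed the test for all 3 chains with all 4 Cre libraries. It was 2.47 for C1qa (SE 0.55, edgeR adjusted p = 0.0128), 4.29 for C1qb (SE 0.72, adjusted p = 0.00204) and 2.94 for C1qc (SE 0.62, adjusted p = 0.00897) on the log2 scale. Of the 9 genes 5 passed, against 7.04% of 17361 genes. Without Cre replicate 1 there were 6, and with the sex score as covariate 2 passed. The number over all genes is not given for either fit, so these counts are not results about the 9 genes. Without flox replicate 1 the C1qa call was lost. The sex score separated WT from IRF8KO in the germline experiment, as given above, which limits what the fit with it can decide. The conditional experiment differs from the germline one in tamoxifen, the Cre and reporter alleles, the sorting gate and the time of deletion, and these cannot be told apart here. Its libraries held neutrophil markers at 0.0112% of counts or less.

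**Figure D2:**
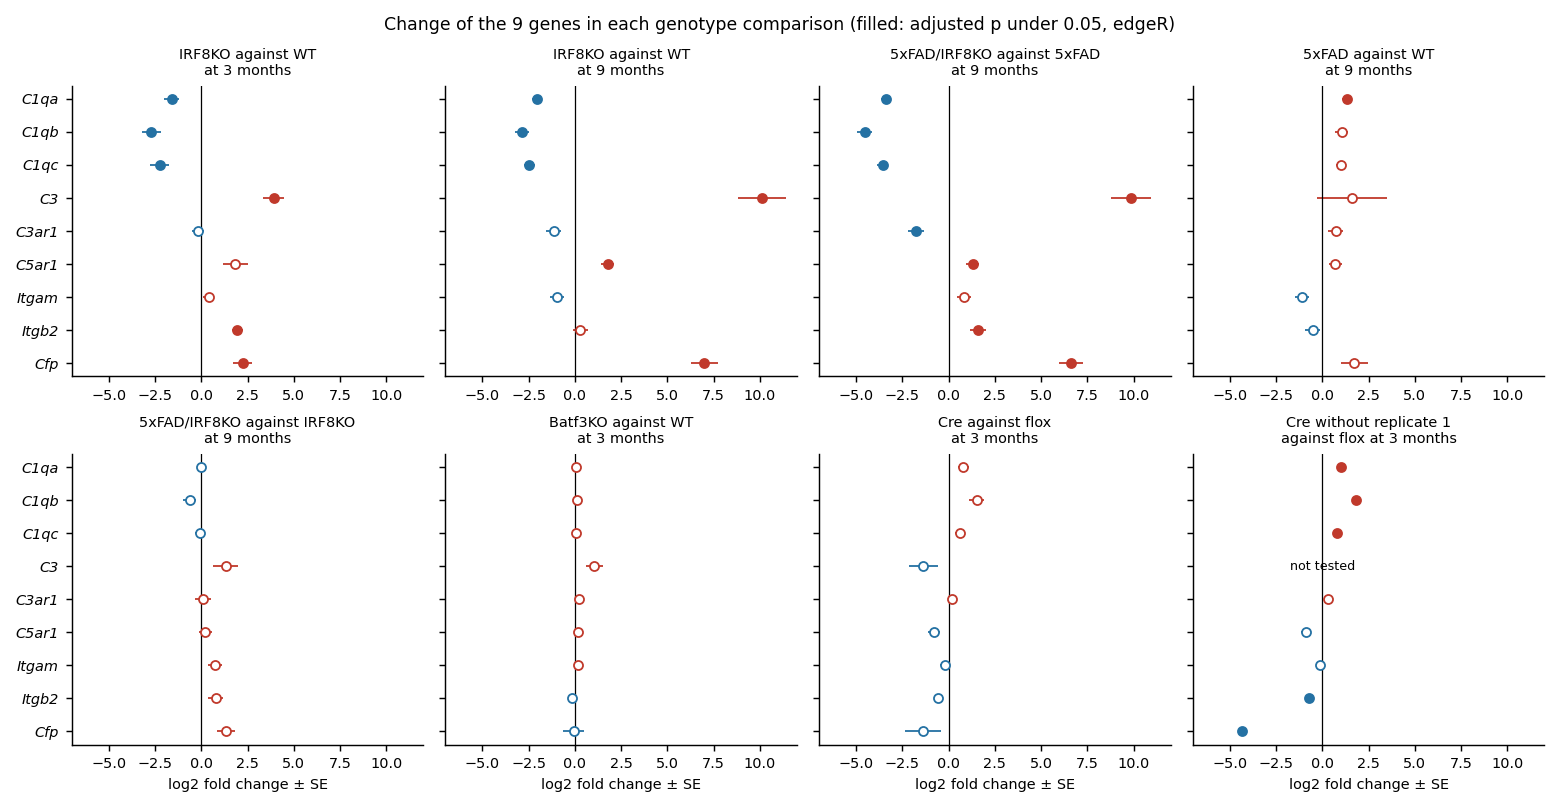
Log2 fold change with its SE on the x axis for the 9 genes on the y axis, 1 panel per comparison, from edgeR. Filled circles passed at an adjusted p under 0.05, and C3 at 9 months is a fitted value against 1 count in WT. The C1q chains lie left of 0 in the 3 germline IRF8KO panels and right of 0 in both Cre panels.

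The chains did not fall in equal measure. C1qb counts per C1qa count were 3.99, 3.49, 3.47 and 3.27 in WT at 3 months and 1.76, 1.72, 1.58 and 1.83 in IRF8KO. At 9 months the ratio was 2.5, 2.44 and 2.01 in WT and 1.56, 1.26 and 1.02 in IRF8KO. In 5xFAD/IRF8KO it was 0.989, 1.22 and 0.511 against 2.22, 1.69 and 1.90 in 5xFAD. In each of these 3 comparisons the groups did not overlap, and C1qb was the chain that lost most relative to C1qa. The exact two-sided permutation test gave p = 0.0286 at 3 months, the smallest value that 4 against 4 libraries allow. The same exact test gave p = 0.1 for both comparisons at 9 months, the smallest that 3 against 3 allow. Benjamini-Hochberg adjustment of these exact p-values over the 14 chain ratios tested gave an adjusted p = 0.2 for each of these. With so few libraries per group, no ratio could have passed after this adjustment, whatever its values. The adjusted values therefore cannot decide whether the ratios differed. In Cre replicates 2 to 4 the ratio was 2.77 ± 0.06 (SD, n = 3) against 1.58 ± 0.08 in flox, and replicate 1 was at 1.5. C1qb and C1qa have exon lengths of 1088 and 1040 bases, so that length alters the ratio little. The mean ratio also differed between control groups, with 3.56 in 3-month WT of the IRF8KO experiment and 2.32 in WT at 9 months. It was 2.18 in WT of the Batf3KO experiment and 1.58 in flox, below the 1.72 of IRF8KO at 3 months. A low ratio was therefore not particular to the knockout groups.

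**Figure D3:**
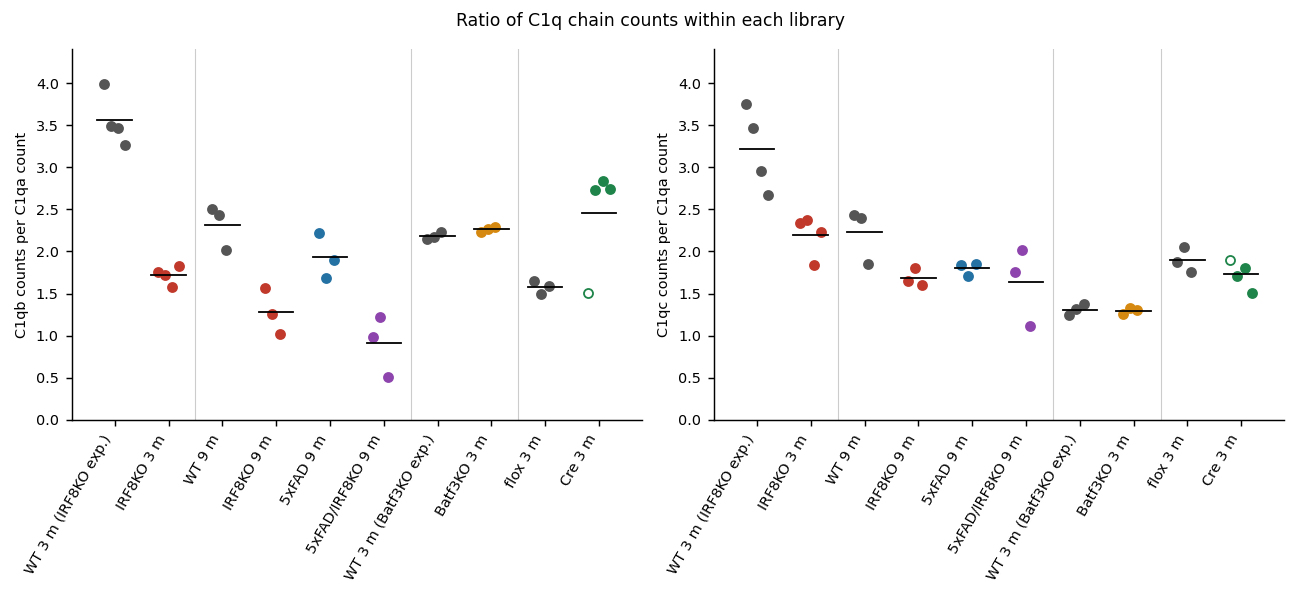
Counts of C1qb (left) and C1qc (right) per C1qa count within each library on the y axis, by group on the x axis. Points are libraries, bars are group means, and the open circle is Cre replicate 1. The C1qb ratio was below the matched control in all 3 germline IRF8KO groups and above flox in Cre replicates 2 to 4.

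C3, the component on which all pathways converge, was nearly silent in most sorted microglia and present in every germline IRF8KO library. It was at 20.4, 4.51, 9.09 and 30.7 CPM in WT at 3 months while the 4 IRF8KO libraries held 351, 290, 176 and 192 CPM. At 9 months the WT libraries held 1 C3 count in all and the 5xFAD libraries 7, whereas IRF8KO was at 160, 76.2 and 195 CPM and 5xFAD/IRF8KO at 609, 401 and 84.8 CPM. The libraries of the Batf3KO and conditional experiments stayed between 0.0941 and 3.84 CPM. The rise at 3 months was 3.91 on the log2 scale (SE 0.57, edgeR adjusted p = 0.00267). At 9 months the ratio of IRF8KO to WT counts was 1605 after allowing for depth, with a 95% counting interval of 288 to 63399 that reflects the single WT count. In 5xFAD/IRF8KO against 5xFAD the fitted rise was 9.83 (SE 1.08, adjusted p = 4.25e-05). All C3 calls stayed without any 1 library in these comparisons.

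Properdin showed the same order in the germline knockout. Cfp was at 105, 137, 39.1 and 19.4 CPM in WT at 3 months while the 4 IRF8KO libraries held 345, 415, 430 and 310 CPM. Its 9-month levels were 0.789, 0.850 and 1.04 CPM in WT, 199, 116 and 50.9 CPM in IRF8KO, 4.07, 3.07 and 0.957 CPM in 5xFAD and 412, 359 and 167 CPM in 5xFAD/IRF8KO. The groups with and without IRF8 were separate in each case. The rise was 2.24 at 3 months (SE 0.53, edgeR adjusted p = 0.0262), 6.98 at 9 months (SE 0.72, adjusted p = 3.12e-05) and 6.60 within 5xFAD mice (SE 0.64, adjusted p = 1.92e-05) on the log2 scale. The call at 3 months was lost without any 1 of the IRF8KO libraries or without WT replicate 3, and the calls at 9 months were kept in each such fit.

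The Cfp level also split the conditional experiment, in the other direction. It was at 87.4, 164 and 116 CPM in flox, at 5.82, 5.40 and 6.49 CPM in Cre replicates 2 to 4 and at 175 CPM in Cre replicate 1. With all 4 Cre libraries the change was -1.38 (SE 0.95, edgeR adjusted p = 0.782), and without replicate 1 it was -4.32 (SE 0.24, adjusted p = 1.82e-10). The 9 markers of border-associated macrophages, Mrc1 and Pf4 among them, summed to 0.0116% to 0.0161% of counts in flox, 0.0208% in Cre replicate 1 and 0.000645% to 0.00112% in Cre replicates 2 to 4. The same sum was 0.0813% to 0.147% in the germline IRF8KO groups and 0.00116% to 0.00173% in WT at 9 months. Not all 9 markers rose, since Cd209f was at 0 in each germline IRF8KO group and Cbr2 in IRF8KO at 9 months. At 3 months edgeR called 3 of 8 tested higher, where 4.15% of all genes rose. In 5xFAD/IRF8KO against 5xFAD it called 6 of 9 higher and 1 lower, where 18% of all genes rose and 9.72% fell. The sum moved with Cfp within the conditional experiment, but not in proportion between experiments. Mean Cfp was 122 CPM both in flox and in IRF8KO at 9 months, whose sums differed. The part of these markers in the Cfp result was not tested.

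The IRF8KO changes of C3 and Cfp were larger at 9 than at 3 months. The difference was 6.29 for C3 (SE 1.35, edgeR adjusted p = 0.00279) and 4.82 for Cfp (SE 0.94, adjusted p = 0.00143) on the log2 scale, and 3 of the 9 genes passed, where 24% of 15512 genes did. The levels in IRF8KO were not higher at 9 than at 3 months, with 144 ± 60.8 against 252 ± 82.7 CPM for C3 and 122 ± 74.0 against 375 ± 57.2 CPM for Cfp (SD, n = 3 and 4). The difference lay in the WT libraries, where C3 was at 16.2 ± 11.8 CPM at 3 months (n = 4) and at a single count in 9-month WT. WT neutrophil markers differed in the same way between the ages, from 0.867% to 5.40% at 3 months and at most 0.000496% at 9 months. So did other sums. Red blood cell markers were at 3.08% to 10.4% against at most 0.00529%, and oligodendrocyte markers at 0.552% to 6.32% against at most 0.0273%. Monocyte, astrocyte, neuron and border macrophage sums were higher at 3 months too. Lymphocyte sums overlapped and endothelial sums were lower at 3 months. The part of these cells in the C3 and Cfp differences was not tested. With the sex score as covariate 0 of the 3 calls stayed. The score separated WT from IRF8KO at both ages, as given above, which limits what this fit can decide.

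Neutrophils are known to make properdin, C5ar1 and complement receptor 3, so their markers are given library by library. Among the 4 WT libraries at 3 months, replicate 4 had the highest neutrophil share at 5.40%, yet the lowest Cfp at 19.4 CPM, C5ar1 at 15.9 CPM and Itgb2 at 158 CPM, and the highest C3 at 30.7 CPM. In the 5xFAD/IRF8KO group replicate 3 had the lowest neutrophil share at 8.26% and the lowest C3, Cfp, C5ar1 and Itgb2. Among IRF8KO libraries at 3 months replicate 2, with the highest share at 16.6%, had the highest C5ar1 and Itgb2 but neither the highest C3 nor the highest Cfp. In IRF8KO at 9 months replicate 3, with the lowest share at 6.53%, had the lowest Cfp, C5ar1 and Itgb2 and the highest C3. Within groups the order of libraries was therefore not the same from group to group. The monocyte sum was also higher in the germline IRF8KO groups, as given above, though not every marker was called. At 3 months edgeR called 1 of 7 monocyte markers tested higher, where 4.15% of all genes rose. It called 3 of 6 in IRF8KO at 9 months, where 19.6% rose, and 3 of 6 within 5xFAD mice, where 18% rose. In these comparisons 0 were called lower. The part of monocytes was not tested.

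**Figure D4:**
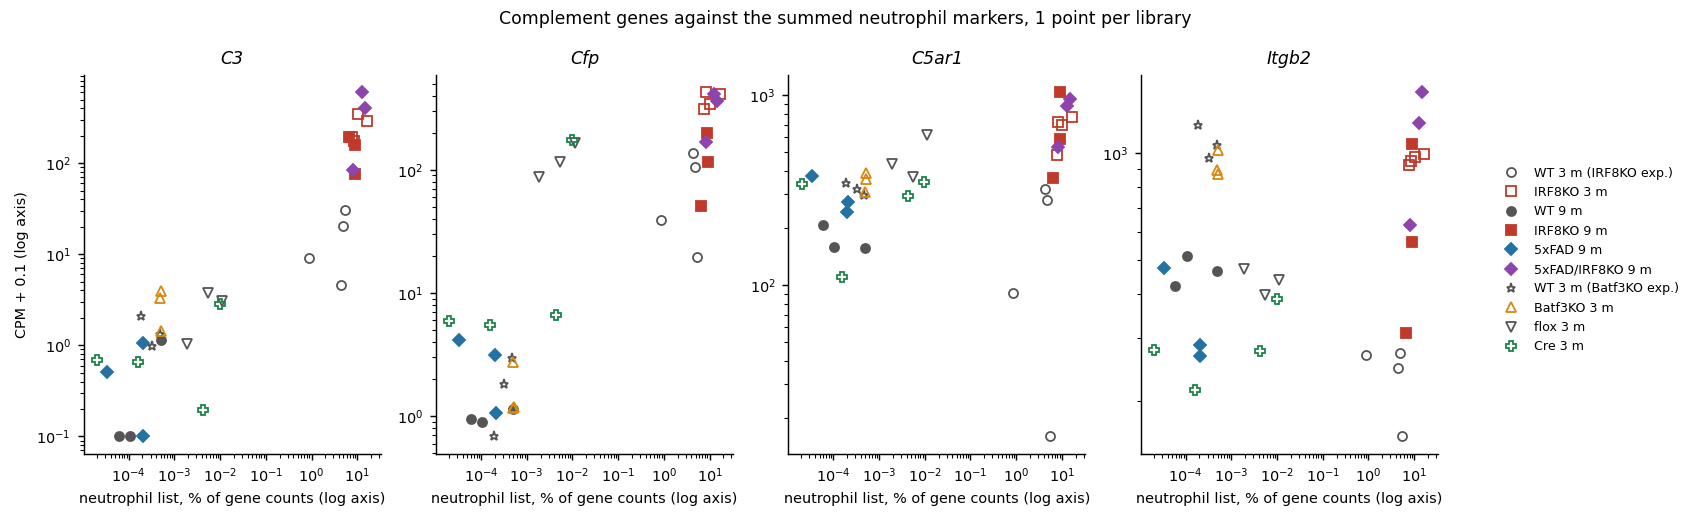
Each point is 1 library, with the summed neutrophil markers in percent of gene counts on a log x axis and CPM plus 0.1 on a log y axis, for C3, Cfp, C5ar1 and Itgb2. Filled symbols are 9-month groups and open ones, with the asterisk of the WT libraries of the Batf3KO experiment, are 3-month groups. The germline IRF8KO libraries lie between 6.53% and 16.6%, and among libraries with neutrophil markers at 0.0112% or less Itgb2 is at 873 to 1197 CPM in the Batf3KO experiment and at 214 to 511 CPM in the others.

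Among the receptors for the released peptides, C3ar1, the receptor for C3a, had a lower mean without IRF8 at 9 months, and edgeR called it within 5xFAD mice. At 9 months it was at 521, 489 and 371 CPM in WT, at 426, 140 and 134 CPM in IRF8KO, at 847, 716 and 839 CPM in 5xFAD and at 240, 157 and 355 CPM in 5xFAD/IRF8KO. The 5xFAD libraries were the highest of all 33 and did not overlap any other group. C3ar1 fell by 1.78 on the log2 scale in 5xFAD/IRF8KO against 5xFAD (SE 0.43, edgeR adjusted p = 0.00937), and this call was kept without any 1 library. In IRF8KO against WT at 9 months the change was -1.15 (SE 0.42, adjusted p = 0.0607) with overlapping groups, which DESeq2 and limma voom called. At 3 months it was -0.15 (SE 0.33, adjusted p = 0.828). In 5xFAD against WT it was 0.72 (SE 0.42, adjusted p = 0.654), although the groups did not overlap. The interaction was -0.62 (SE 0.59, adjusted p = 0.723), so the change with IRF8KO was not shown to differ between 5xFAD and WT mice.

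C5ar1, the receptor for C5a, was higher in germline IRF8KO. It was at 158, 207 and 157 CPM in WT at 9 months and at 1042, 586 and 367 CPM in IRF8KO, and at 375, 243 and 273 CPM in 5xFAD and 874, 954 and 532 CPM in 5xFAD/IRF8KO. Neither pair of groups overlapped. C5ar1 rose by 1.77 (SE 0.37, edgeR adjusted p = 0.00368) in IRF8KO and by 1.29 (SE 0.36, adjusted p = 0.0183) within 5xFAD mice on the log2 scale. The call within 5xFAD mice was lost without 5xFAD replicate 2 or 3 or 5xFAD/IRF8KO replicate 1 or 2. At 3 months the WT libraries spread from 15.9 to 319 CPM and the IRF8KO libraries from 485 to 766 CPM, a change of 1.83 (SE 0.67, adjusted p = 0.115) that did not pass with edgeR and was called by DESeq2 and limma voom. In the conditional knockout C5ar1 was at 434, 619 and 369 CPM in flox and at 348, 339, 111 and 295 CPM in Cre, a change of -0.77 (SE 0.32, adjusted p = 0.481).

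Of the 2 subunits of complement receptor 3, Itgb2 changed and Itgam did not pass in any genotype comparison in the main edgeR fits. Other tools and other edgeR settings called Itgam in some. Itgb2, the shared beta chain of the leukocyte integrins, was at 273, 248, 269 and 158 CPM in WT at 3 months and at 976, 991, 946 and 924 CPM in IRF8KO. This was a rise of 1.95 on the log2 scale (SE 0.31, edgeR adjusted p = 0.00417), kept without any 1 library. At 9 months Itgb2 was at 511, 422 and 465 CPM in WT and at 1059, 561 and 310 CPM in IRF8KO, overlapping groups with a change of 0.30 (SE 0.42, adjusted p = 0.649). The difference between the ages was -1.59 (SE 0.49, adjusted p = 0.0250). Leaving out any 1 of the WT libraries at 9 months ended this call, as did leaving out 3-month IRF8KO replicate 1 or 9-month IRF8KO replicate 2 or 3. Within 5xFAD mice Itgb2 rose by 1.59 (SE 0.43, adjusted p = 0.0166), from 472, 268 and 286 CPM to 1214, 1488 and 627 CPM, and this call was lost without 5xFAD replicate 2 or 3 or 5xFAD/IRF8KO replicate 2. In the conditional knockout without Cre replicate 1 it fell by 0.71 (SE 0.17, adjusted p = 0.0143), and with all 4 Cre libraries the change was -0.57 (SE 0.19, adjusted p = 0.348).

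Itgam, which encodes the CD11b chain by which microglia are often sorted, was at 109, 105, 102 and 188 CPM in WT at 3 months and at 189, 187, 154 and 166 CPM in IRF8KO. At 9 months WT libraries spread from 161 to 416 CPM and IRF8KO libraries from 149 to 191 CPM. The 5xFAD libraries held 128 to 158 CPM and the double mutants 158 to 391 CPM. The changes were 0.39 at 3 months (SE 0.30, edgeR adjusted p = 0.475), -0.98 at 9 months (SE 0.37, adjusted p = 0.067), -1.09 in 5xFAD against WT (SE 0.37, adjusted p = 0.213) and 0.84 in 5xFAD/IRF8KO against 5xFAD (SE 0.37, adjusted p = 0.112). DESeq2 called the lower level in IRF8KO at 9 months, and DESeq2, limma voom and the fit of only the compared groups called the lower level in 5xFAD against WT. Its level is an undercount, since a protein-coding gene annotated on the same strand, Gm49368, shares most of its exons. Reads could be assigned to Itgam alone over 1574 of its 5024 exon bases, 31.3%. On that countable length Itgam was at 185 ± 81.1 CPM per kilobase and Itgb2 at 153 ± 14.5 CPM per kilobase in WT at 9 months (SD, n = 3), levels whose ranges overlap within 1 SD.

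Batf3, a partner factor of IRF8 that was itself far lower in the germline IRF8KO libraries, was removed in a separate line. None of the 9 genes passed in Batf3KO against WT with edgeR, where 3.83% of 13128 genes did. At an unadjusted p under 0.05 there were 2 of the 9, C3 and C3ar1, and 2415 of all 13128 genes. DESeq2 called 0, where it called 6.41% of genes, and limma voom called 1, C3ar1, where it called 7.5%. C1qa was at 6182, 5527 and 4710 CPM in WT and at 5297, 5322 and 6081 CPM in Batf3KO, and the C1q chains changed by 0.08 to 0.14 on the log2 scale with SEs of 0.06 to 0.08. C3ar1, whose upstream window holds the BATF core, was at 445, 465 and 498 CPM in WT and at 517, 514 and 538 CPM in Batf3KO, a change of 0.21 (SE 0.08, adjusted p = 0.163). The spread between libraries was narrow here, and for the 7 genes above 100 CPM no change exceeded 0.21 on the log2 scale, with SEs of 0.06 to 0.09.

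The order of the 10 groups differed between genes. For C1qa, C1qb and C1qc the Cre group had the highest mean and the 3 germline IRF8KO groups the 3 lowest, with WT at 9 months next above them. For C1qb and C1qc the steps from WT at 9 months to IRF8KO at 3 months and on to the pair of 9-month IRF8KO groups were without overlap. For C1qa the IRF8KO groups of the 2 ages overlapped, and for each chain IRF8KO and 5xFAD/IRF8KO at 9 months overlapped. C3 and C5ar1 had the 3 germline IRF8KO groups on top, C3 with a gap below them and C5ar1 without one. In 5xFAD/IRF8KO against IRF8KO none of the 9 genes passed with edgeR, where 0.164% of genes did. At an unadjusted p under 0.05 there were 1 of the 9 and 1853 of all 14604 genes. DESeq2 called 0 of the 9, where it called 4.89% of genes, and limma voom called 0 of all genes. Cfp was highest in IRF8KO at 3 months and in 5xFAD/IRF8KO, which overlapped, and Itgb2 was as high in the WT of the Batf3KO experiment as in 5xFAD/IRF8KO.

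Levels also differed between WT groups of the same age, which limits any reading across experiments. Between the WT libraries of the IRF8KO and of the Batf3KO experiment, both at 3 months, 4 of the 9 genes passed, where 42.8% of 14621 genes did. Cfp was higher by 5.52 (SE 0.87, edgeR adjusted p = 0.00106) and C3 by 3.62 (SE 0.87, adjusted p = 0.00815) in the WT libraries of the IRF8KO experiment. C3ar1 was lower there by a log2 change of -1.28 (SE 0.31, adjusted p = 0.00830) and Itgb2 by -2.10 (SE 0.30, adjusted p = 0.000652). The C3 call was lost without WT replicate 2 or 3 of the Batf3KO experiment. The neutrophil share was 0.867% to 5.40% in the first group and at most 0.000477% in the second, and the first held Y-linked transcripts in 3 of 4 libraries and the second Xist in 3 of 3. With the sex score as covariate 0 of the 9 genes passed and C3ar1 was at 1.59, the opposite sign, and sex-linked transcripts and experiment cannot be told apart here.

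The genes whose level followed each gene most closely over the 33 libraries were found by Pearson's r on log2(CPM + 1) among 9204 genes. C1qa was most like Trem2, a microglial lipid receptor, at r = 0.97 and Cd68, a lysosomal protein of phagocytes, at r = 0.97. C1qb and C1qc were most like each other at r = 0.98. C3 was most like Msrb1, Orm1 and Cd44 at r = 0.96 to 0.97, and Cfp was most like Adgre5 and Pilra at r = 0.97 and 0.96. C3ar1 was most like Ctsb, the protease cathepsin B, at r = 0.90, Itgb2 like Hgsnat at r = 0.92, Itgam like Hif1a at r = 0.84 and C5ar1 like Spg21 at r = 0.83. These libraries share depth, experiment and genotype, and the values describe that shared pattern.

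Beyond the 9 genes, 48 other complement genes were listed by role, and 27 of them reached a mean of 5 CPM in none of the 10 groups. All listed terminal components except C8g, and most serine proteases of the pathways, were among these low genes. At 3 months 1 of 17 tested rose in IRF8KO and 0 fell, where 7.39% of all genes changed. At 9 months 7 of 21 rose and 3 fell, where 19.6% of all genes rose and 8.68% fell. In 5xFAD/IRF8KO against 5xFAD 8 of 21 rose and 1 fell, where 18% of all genes rose and 9.72% fell. In 5xFAD against WT and in the conditional knockout with all 4 Cre libraries 0 changed by edgeR, the same comparisons in which 1.99% and 0% of all genes did.

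Fcnb, a ficolin of the lectin pathway that bone marrow granulocytes are known to store, was the listed gene with the plainest difference. It was at 15.6 ± 7.19 CPM in WT and 610 ± 507 CPM in IRF8KO at 3 months (SD, n = 4), a log2 rise of 5.21 (SE 0.63, edgeR adjusted p = 0.00156). At 9 months it was at 387 ± 15.1 CPM in IRF8KO and 338 ± 66.2 CPM in 5xFAD/IRF8KO, and had 0 counts in the 3 WT and in the 3 5xFAD libraries. Lrp1, a scavenger receptor that binds C1q-tagged cells through calreticulin, fell by 3.97 in IRF8KO at 9 months (SE 0.60, edgeR adjusted p = 0.000443), and Calr, calreticulin itself, by 1.24 (SE 0.30, adjusted p = 0.00986). Masp1, a protease of the lectin pathway, fell by 4.86 (SE 1.69, adjusted p = 0.0484).

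Several listed regulators rose at 9 months together with markers of other brain cells. Clu, clusterin, an inhibitor of the terminal pathway and an abundant astrocyte gene, was at 1.67 ± 1.96 CPM in WT and 558 ± 125 CPM in IRF8KO at 9 months (SD, n = 3). At 3 months it was at 1413 ± 1199 CPM in WT and 945 ± 374 CPM in IRF8KO (n = 4). The regulators Vtn, Csmd1 and Cd55, the listed receptor Cd93 and the lectin pathway gene Colec12 also rose at 9 months. They reached means of 9.75 to 26.1 CPM, from 0 to 2 counts in all 3 WT libraries. All 8 astrocyte markers and all 9 neuron markers rose with IRF8KO at 9 months, and the astrocyte sum was 0.241% to 0.302% of counts against 0.0209% to 0.0223% in WT. The red blood cell sum was 2.41% to 16.0% against at most 0.00529%. The part of these cells in the rise of the complement genes named here was not tested.

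In Batf3KO 3 of 15 listed genes passed, where 3.83% of all genes did, and all 3 stood in the list of receptors. Itgax, which encodes CD11c and pairs with Itgb2 as complement receptor 4, fell by 1.72 (SE 0.30, edgeR adjusted p = 0.00577), from 10.8 ± 3.05 to 3.14 ± 1.08 CPM (SD, n = 3). Lrp1 fell by 0.42 (SE 0.08, adjusted p = 0.0137) and Calr rose by 0.30 (SE 0.07, adjusted p = 0.0297). Both were abundant, with Lrp1 at 980 ± 139 CPM and Calr at 797 ± 75.8 CPM in WT (n = 3).

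**Figure D5:**
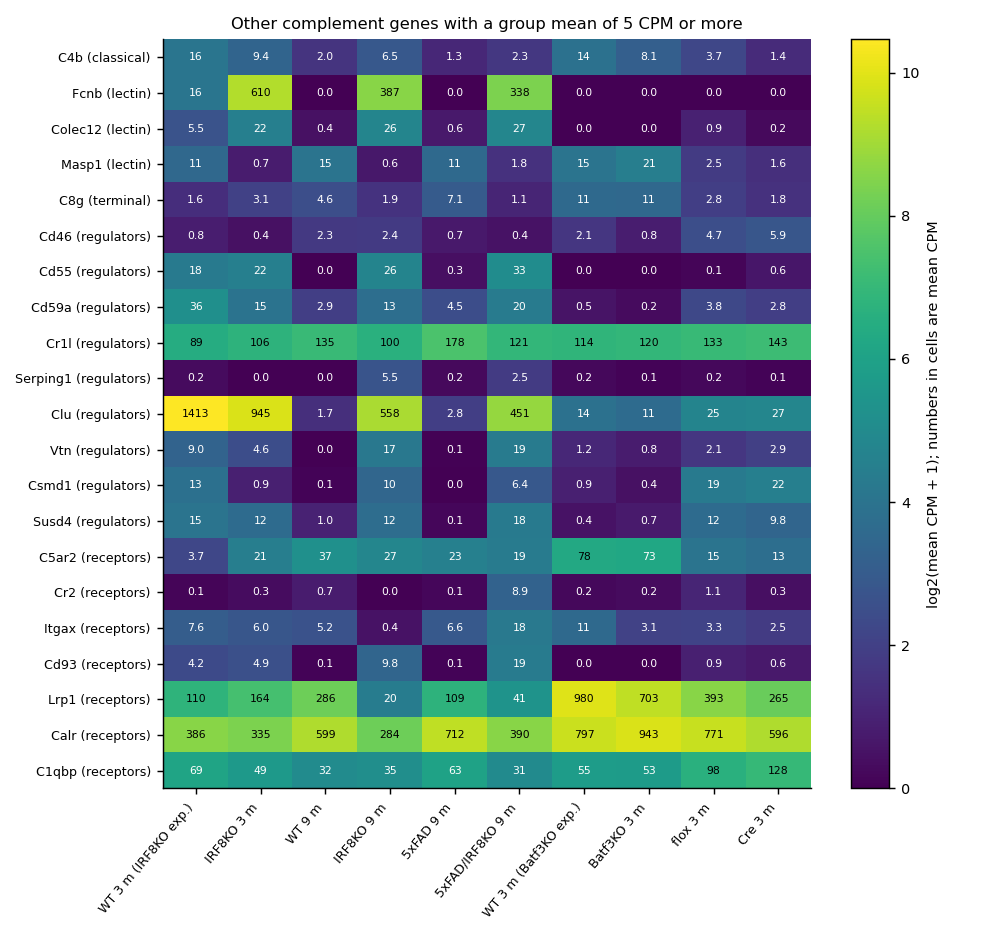
Mean CPM by group for the 21 other complement genes with a group mean of 5 CPM or more, with log2(mean CPM + 1) as colour and the mean CPM printed in each cell. Genes are on the y axis with their role, and groups on the x axis. Fcnb is at 0 in WT and 5xFAD at 9 months and at 387 and 338 CPM in the IRF8KO groups of that age.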

How the data were processed

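RNA was measured with the SMART-Seq v4 and Nextera XT kits, per the labels' protocols, without molecular identifiers, so intervals cover counting error only. The authors deposited whole-number counts of reads per gene with 3 count columns for strand, and the column that ignores strand was used. The first strand column held 49.5% to 50.1% of the reads with a strand, so overlapping and antisense genes cannot be separated. Per the submitters' processing notes, the tools included STAR 2.5.2b and Picard 2.17.11, and the build mm10. The 4 summary lines of unassigned reads, 21.4% to 52.7% of reads, were left out. Of 54146 gene identifiers 54079 were found in GENCODE M21 (GRCm38).

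Tests were edgeR 4.0.16 quasi-likelihood fits (glmQLFTest) run under R 4.3.3, with TMM scaling, its default filter on low counts and Benjamini-Hochberg adjustment over all genes tested, at 0.05. SEs were derived from the log2 fold change and the F statistic. The 12 libraries aged 9 months shared 1 model, and other comparisons used their own groups. Fold changes are first group minus second. Levels are CPM with TMM factors over all 33 libraries. Alternatives were DESeq2 1.42.0, limma 3.58.1 voom with quality weights, other size factors, no filter, a score of sex-linked genes as covariate, a replicate block, 1 model of all libraries, and leaving out each library. The edgeR script was tested on simulated data. The 9 genes, the pathway and marker lists were chosen with earlier results of these data known. Named were the 9 genes, pathway genes that passed and whose higher group had a mean of 5 CPM or more, and the 3 genes most like each of the 9 were found by Pearson's r. Of the pathway list 1 gene is not reported here, and the counts over that list leave it out.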

Additional observations from a re-analysis of the deposited data

Results flagged for a closer look

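Of 27 checks for a library far from the rest of its group, 2 met Dixon's 95% criterion, and chance alone gives about 1 in 20. Itgam was at 188 CPM in WT replicate 4 of the 3-month germline experiment, where the other 3 libraries were at 102 to 109 CPM. Cfp was at 175 CPM in Cre replicate 1, where the other 3 Cre libraries were at 5.40 to 6.49 CPM. That Cre library also held Irf8 at the flox level.

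The change with IRF8KO differed between 9 and 3 months for 3 of the 9 genes by the edgeR test of the difference. The difference was 6.29 for C3, 4.82 for Cfp and -1.59 for Itgb2 on the log2 scale. The change in the conditional knockout differed from that in the germline knockout at 3 months for 5 genes, by 2.47 for C1qa, 4.29 for C1qb, 2.94 for C1qc, -5.23 for C3 and -2.43 for Itgb2.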

How the results depend on the processing

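Over 1545 alternative fold changes 1333 kept their direction and their side of the threshold, 64 lost a call, 74 gained one and 74 changed sign. Of 172 alternative counts of called genes 31 moved by over 1.5 times. The causes were not tested, beyond the smaller number of libraries or genes in a fit.

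Counts of called genes moved as follows. With the sex score 0 passed at 3 months, where 43 of 13121 genes did. In 5xFAD against WT it gave 0, where 2 of 14604 genes passed. In 5xFAD/IRF8KO against 5xFAD it gave 5, where 2234 of 14604 genes passed. It gave 0 in the difference between ages, 2 in the difference of Cre from IRF8KO and 0 between the WT groups. In 5xFAD against WT 3 passed with DESeq2, where 739 of 14604 genes did, and 3 without a filter, where 163 of 29345 did. There 7 passed with voom, where 3821 of 14604 did, and 7 with only the compared groups, where 4546 of 10452 did. For the interaction DESeq2 gave 4, where 883 of 14604 genes passed. The model of all libraries gave 1, where 1082 of 18534 did, and no filter gave 2, where 238 of 29345 did. A fit of only the compared groups was not run for the interaction, since all 4 groups enter. In Batf3KO voom gave 1, where 984 of 13128 genes passed. In Cre against flox DESeq2 gave 1, where 164 of 15512 did, voom 2, where 257 of 15512 did, and no filter 4. Leaving out 1 library gave 2 to 6 at 3 months, 0 in each 5xFAD against WT fit, 0 to 1 in Batf3KO and 0 to 5 in Cre. Over all genes such fits called 305 to 1128 at 3 months, of 13407 to 14039 tested. In 5xFAD against WT they called 2 to 102, of 15833 to 16071 tested.

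Replicate numbers are shared by groups but do not pair libraries, since correlations of same-numbered libraries ran from -0.29 to 0.25 and not every pair of any comparison exceeded 0.1. With the replicate block 5 of the 9 genes passed at 3 months, where 988 of 13121 genes did. At 9 months 7 passed in IRF8KO, 0 in 5xFAD against WT and 8 in 5xFAD/IRF8KO against 5xFAD. Of all 14604 genes 3407, 105 and 3332 did so in these 3 comparisons. The block gave 1, Itgb2, in the difference of Cre from IRF8KO and 5 between the WT groups. The block gave 0.0095 for C1qa in 5xFAD/IRF8KO against IRF8KO, 0.019 for Cfp in Batf3KO and 0.035 for C1qb between WT groups.

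The sign changes were in log2 changes that had not passed, save C3ar1 between the WT groups. With the sex score these were C3ar1 0.87 at 3 months, C1qa 0.059 in 5xFAD/IRF8KO against IRF8KO, C3 0.66 and Cfp 1.07 in the interaction, C3ar1 -0.37 in the difference of Cre from IRF8KO, and C1qa 3.06, C1qb 4.45, C3ar1 1.59 and C5ar1 6.53 between WT groups. With voom they were Itgb2 -0.027 at 9 months, C3 -0.22 in 5xFAD against WT, C1qa 0.066 and C1qc 0.041 in 5xFAD/IRF8KO against IRF8KO, and C3 1.35, C5ar1 0.038 and Cfp 0.53 in the interaction. DESeq2 gave C3 0.013 in the interaction, and for the difference between ages C1qb 0.089, C1qc 0.044 and C5ar1 0.15, where other size factors gave C1qb 0.089, C1qc 0.044 and C5ar1 0.148. The model of all libraries gave C1qa 0.011 in 5xFAD/IRF8KO against IRF8KO and C5ar1 0.011 in the difference between ages, and no filter gave C1qa 0.037 in the former.

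Leaving out 1 library gave -0.30 to 0.16 for C3ar1 at 3 months and -0.37 to 0.51 for Itgb2 at 9 months. In 5xFAD/IRF8KO against IRF8KO it gave -0.16 to 0.27 for C1qa, -0.21 to 0.16 for C1qc, -0.24 to 0.83 for C3ar1 and -0.059 to 0.69 for C5ar1. In the interaction it gave -3.33 to 1.28 for C3, -0.97 to 0.15 for C3ar1, -0.72 to 0.030 for C5ar1 and -0.73 to 0.16 for Cfp. It gave -0.64 to 0.51 for Cfp in Batf3KO, -0.48 to 0.066 for Itgam in Cre, -0.59 to 0.18 for C1qb, -0.60 to 0.13 for C1qc and -0.47 to 0.42 for C5ar1 between ages, and -0.46 to 0.20 for C1qb between WT groups. Depth limits C3 and Cfp in WT at 9 months, with 1 and 9 counts.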
